A study of Mus musculus with 8 samples.

Results

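Transcripts of 9 genes of the endothelin and renin-angiotensin systems were followed in cells taken from mouse kidneys with and without polycystic disease. The genes were chosen by symbol among the 55304 gene rows of the count table: 4 endothelin genes (Edn1, Ece1, Ednra and Ednrb) and 5 renin-angiotensin genes (Ren1, Agt, Ace, Agtr1a and Atp6ap2). All 9 had enough counts to be tested, in a table of 17440 tested genes. Dolichos biflorus agglutinin (DBA) is a lectin that marks the collecting duct. Per the labels, whose protocols also mention whole kidney, the cells were isolated fresh for their binding of DBA. Their donors were wild type (WT) or had autosomal dominant polycystic kidney disease (ADPKD). The labels name neither the altered gene nor a Cre driver, strain or sex. Mice of each genotype received the vehicle DMSO or 666-15, which inhibits the transcription factor CREB, at 5 mg/kg. Dosing was once daily for 5 days and then paused for 2 days, in a course of 3 weeks that began at postnatal day 11. The 4 groups held 2 libraries each: WT with vehicle, WT with inhibitor, ADPKD with vehicle and ADPKD with inhibitor. Whether libraries of a group stem from different animals is not in the labels. The p-values therefore measure only the spread between these libraries, which may be technical in groups other than WT cells with inhibitor. In that group the 2 libraries differed in sex-linked genes, so they came from different animals.

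Endothelin-1, the peptide made from Edn1, is cut from its inactive precursor by the endothelin-converting enzyme Ece1. It acts on the receptor encoded by Ednra, which contracts vessels, and on that encoded by Ednrb, which in the collecting duct restrains sodium and water uptake and in endothelium clears the peptide. In the renin-angiotensin system, renin (Ren1) cuts angiotensinogen (Agt), and angiotensin-converting enzyme (Ace) makes angiotensin II, which acts mainly through the type 1 receptor, encoded in mice chiefly by Agtr1a. Atp6ap2, the (pro)renin receptor, is also an accessory subunit of the proton pump V-ATPase, which is abundant in intercalated cells of the collecting duct. In kidney, renin is made mainly by juxtaglomerular cells of the arteriole wall and also by collecting duct cells, while Agt and Ace are prominent in the proximal tubule.

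On GRCm38, Edn1 lies at chr13:42301476-42307990 and Ece1 at chr4:137862237-137965229. Ednra lies at chr8:77663031-77724464 and Ednrb at chr14:103814625-103844402, both on the minus strand, and the first 2 on the plus strand. Ren1 lies at chr1:133350510-133360325, Ace at chr11:105967945-105989964, Agtr1a at chr13:30336441-30382867 and Atp6ap2 at chrX:12587801-12617049, all on the plus strand, and Agt at chr8:124556534-124569706 on the minus strand. All are protein-coding genes. Edn1, Ece1, Ednra, Ace and Agtr1a each overlap a second gene model, whose rows held at most 11 counts in any library. In mouse strains that carry the copy Ren2, its reads cannot be separated from those of Ren1 here, and Ren2 was not analysed.

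Since the drug acts on a transcription factor, the 250 bases before the annotated starts were searched for 3 short motifs on both strands, in RefSeq sequence of build GRCm38.p6. They were the full CREB site TGACGTCA, its core TGACG, which is also part of the full site, and the AP-1 site TGANTCA. Windows were found for 8 of the 9 genes, 12 windows in all. None of the 12 held the full CREB site, which 1.55% of all 32851 windows held, or the AP-1 site, which 6.75% held. The core was in 2 of the 12, against 17.8% of all windows: in Ednrb with its first base at -203 from the start and in Atp6ap2 at -62. A match of this length describes the letters only. Below are those 2 windows, with the core in capitals, and those of Edn1 and Agt, the endothelin gene that rose and the gene that fell most in ADPKD cells. They read 5′ to 3′ on the strand of the gene: Ednrb is chr14:103843702-103843951 minus, Atp6ap2 chrX:12587509-12587758 plus, Edn1 chr13:42301226-42301475 plus and Agt chr8:124569707-124569956 minus. The Ednrb window lies inside the GENCODE gene, another transcript of which starts further upstream.
Ednrb: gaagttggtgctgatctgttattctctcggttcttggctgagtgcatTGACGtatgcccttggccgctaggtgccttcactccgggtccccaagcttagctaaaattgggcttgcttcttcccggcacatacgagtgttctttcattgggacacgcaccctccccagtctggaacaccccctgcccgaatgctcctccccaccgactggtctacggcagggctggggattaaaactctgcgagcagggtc
Atp6ap2: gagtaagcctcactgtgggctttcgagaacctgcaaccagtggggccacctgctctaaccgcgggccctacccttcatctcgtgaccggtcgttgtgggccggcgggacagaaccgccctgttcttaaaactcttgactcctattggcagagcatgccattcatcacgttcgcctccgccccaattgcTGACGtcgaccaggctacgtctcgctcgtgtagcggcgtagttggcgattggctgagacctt
Edn1: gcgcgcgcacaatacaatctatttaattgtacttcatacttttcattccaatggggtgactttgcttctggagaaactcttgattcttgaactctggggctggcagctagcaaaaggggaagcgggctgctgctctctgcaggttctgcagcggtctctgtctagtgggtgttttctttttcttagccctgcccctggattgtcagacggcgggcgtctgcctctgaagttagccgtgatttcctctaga
Agt: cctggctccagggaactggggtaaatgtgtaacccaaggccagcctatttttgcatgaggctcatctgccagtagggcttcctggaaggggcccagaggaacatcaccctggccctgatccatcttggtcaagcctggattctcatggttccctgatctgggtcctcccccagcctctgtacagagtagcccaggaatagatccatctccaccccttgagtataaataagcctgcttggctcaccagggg

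Libraries held 15108793 to 19702638 counts. Levels are counts scaled to library size with TMM factors (CPM), group levels are mean ± SD with n = 2, and changes are log2 fold changes ± SE of the fit. In WT cells with inhibitor, replicate 2 stood apart in its sex-linked genes, with 17688 counts of Xist against at most 8 in every other library, and 0 counts of Ddx3y against at least 1776. The labels give no sex. For the 9 genes, each call that was lost without this library is named. For genes of the other lists, fold changes are given with this library only. Of 10 principal cell markers, Aqp2 was clear (276 to 412 CPM in WT cells with vehicle), but the vasopressin receptor Avpr2 had 1 to 3 counts per group. Markers of other cell types were also present: in WT cells with vehicle the 12 proximal tubule markers summed to 16340 to 18280 CPM, against 1182 to 1534 CPM for the principal cell markers. In bulk libraries of this kind, fewer cells of a type and less RNA per cell cannot be told apart. With 2 libraries a group, most tested genes had groups without overlap in CPM. Between genotypes these were 80% of 17440 genes with vehicle and 73.8% with inhibitor. For inhibitor against vehicle they were 71.6% in ADPKD cells and 64.1% in WT cells. Of the 9 genes, 7, 9, 7 and 7 did so, in that order. Separations named below are to be read beside these shares.

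Of the 9 genes, 5 differed between ADPKD and WT cells given vehicle. Edn1 rose, and Agt, Agtr1a, Ace and Atp6ap2 fell, where 56.4% of all tested genes differed in either direction. The median over the 9 genes was -0.24, against 0.05 over all tested genes. Without replicate 2 of either vehicle group 3 genes were called, all lower. With inhibitor, ADPKD cells lost Ednra, Ednrb and Ren1 transcript and gained Agt and Atp6ap2 relative to vehicle, again 5 of 9, where 41.4% of all genes changed. The medians were -0.22 and 0.02, and 3 genes were called without replicate 2 of ADPKD cells with vehicle. In WT cells the inhibitor changed 6 of 9, with Atp6ap2 higher and Ece1, Ednra, Agt, Ace and Agtr1a lower, where 25.5% of all genes changed and the medians were -0.38 and -0.01. That count was 1 without replicate 2 of the WT cells with inhibitor and 2 without replicate 1 of the WT cells with vehicle.

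**Figure D1:**
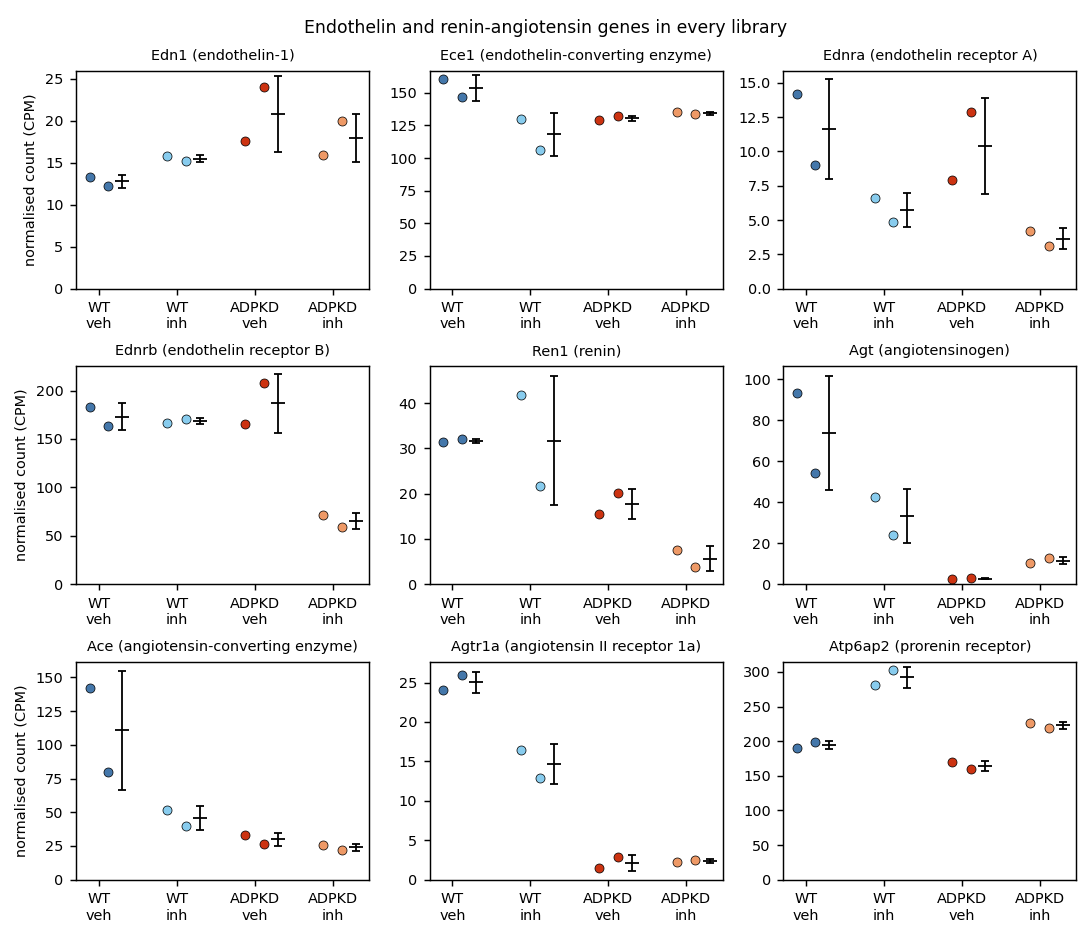
Normalised count (CPM, linear axes from 0) of each of the 9 genes in every library; circles are libraries, and the bar beside them is the group mean with SD (n = 2). Agt and Agtr1a lie near the axis in both ADPKD groups, and the mean of Ednrb is 169 to 187 CPM in 3 groups and 65.3 CPM in ADPKD cells with inhibitor.

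Edn1, the ligand gene, was measured at 13.4 and 12.2 CPM in WT cells with vehicle, 15.8 and 15.2 in WT cells with inhibitor, 17.6 and 24.0 in ADPKD cells with vehicle and 15.9 and 19.9 in ADPKD cells with inhibitor. All 4 ADPKD libraries were above all 4 WT libraries, and the 2 ADPKD groups overlapped. With vehicle, Edn1 was 1.63-fold higher in ADPKD cells (log2 0.70 ± 0.19, adjusted p = 0.00653). This call was lost without replicate 2 of WT cells with vehicle (0.62, adjusted p = 0.0632) and without replicate 2 of ADPKD cells with vehicle (0.44, adjusted p = 0.0932). The inhibitor gave -0.22 ± 0.19 in ADPKD cells (adjusted p = 0.381) and 0.27 ± 0.19 in WT cells (adjusted p = 0.331), neither beyond the threshold.

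Ece1, the enzyme that releases endothelin-1, was the steadiest of the 4 endothelin genes. Its level was 161 and 146 CPM in WT cells with vehicle, 130 and 106 in WT cells with inhibitor, 129 and 132 in ADPKD cells with vehicle and 135 and 134 in ADPKD cells with inhibitor. Only the drop with inhibitor in WT cells passed the test among the comparisons of 2 groups (-0.38 ± 0.11, adjusted p = 0.0215), and it did not pass without replicate 2 of that group (-0.25, adjusted p = 0.121) or without replicate 1 of the WT cells with vehicle (-0.31, adjusted p = 0.191), nor in a fit of those 2 groups alone (adjusted p = 0.0604). The inhibitor contrast in ADPKD cells was 0.04 ± 0.11, and the genotype contrast with vehicle -0.24 ± 0.11 (adjusted p = 0.079). The latter came within the threshold in 4 of 9 alternatives that kept all libraries of the groups compared, among them a fit of those 2 groups alone (adjusted p = 0.0122). In 1 of the 9 the inhibitor contrast in ADPKD cells passed as well. The interaction for Ece1 was 0.42 ± 0.15 (adjusted p = 0.0594) and passed in 5 of 8 such alternatives.

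Ednrb, the endothelin receptor found on collecting duct and endothelial cells, set 1 group apart from the other 3. Its level was 183 and 163 CPM in WT cells with vehicle, 167 and 170 in WT cells with inhibitor and 166 and 208 in ADPKD cells with vehicle, 3 groups that overlapped each other. In ADPKD cells with inhibitor it was 71.3 and 59.3 CPM, 37.7% of the mean of WT cells with vehicle. Against vehicle this was a 2.86-fold fall (-1.52 ± 0.13, adjusted p = 4.52e-06), while WT cells gave -0.04 ± 0.13 (adjusted p = 0.855). The difference between these responses passed its own test (interaction -1.48 ± 0.18, adjusted p = 0.000107). Ednrb and Agt were the 2 of 9 genes to pass it, where 26.6% of all genes did; the count was 5 with DESeq2, and both were called in every alternative run.

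Ednra, the vasoconstrictor receptor of smooth muscle and mesangial cells, was low throughout. Counts were 285 and 153 in WT cells with vehicle (14.2 and 9.04 CPM), 100 and 77 in WT cells with inhibitor (6.63 and 4.87 CPM), 152 and 237 in ADPKD cells with vehicle (7.89 and 12.9 CPM) and 64 and 46 in ADPKD cells with inhibitor (4.17 and 3.12 CPM). Both vehicle groups overlapped, and each inhibitor group lay below them. The inhibitor lowered Ednra in ADPKD cells (-1.51 ± 0.32, adjusted p = 0.00271) and in WT cells (-1.02 ± 0.31, adjusted p = 0.0291). The WT call was lost without replicate 1 of the vehicle group (-0.66, adjusted p = 0.298) or replicate 2 of the inhibitor group (-0.82, adjusted p = 0.156). The interaction was -0.49 ± 0.45 (adjusted p = 0.463).

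Per kilobase of transcript, Ednrb exceeded Ednra in every library, by 11.4- and 15.97-fold in WT cells with vehicle and by 15.1- and 16.8-fold in ADPKD cells with inhibitor. The ratio was 18.5 and 14.3 in ADPKD cells with vehicle and 22.2 and 30.9 in WT cells with inhibitor. The ratios of the 2 ADPKD groups overlapped, while the levels of both receptors fell with inhibitor.

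Markers of endothelium and of the vessel wall moved in the same comparison. All 12 endothelial markers fell with inhibitor in ADPKD cells, with a median of -1.82, and their sum was 1325 to 1620 CPM with vehicle and 362 to 451 CPM with inhibitor. Of 11 mural and juxtaglomerular markers 5 fell and none rose (median -0.67), from 470 to 672 CPM to 163 to 209 CPM in sum. Cspg4 held much of that sum, with 194 to 443 CPM with vehicle and 50.3 to 77.6 CPM with inhibitor; Pdgfrb, Des, Gata6 and Mcam were the other 4 that fell, and the remaining 6 did not pass. In WT cells 1 of 12 endothelial (median -0.39) and 1 of 11 mural markers (median -0.46) fell. These counts were not stable. With a filter of 5 CPM in 2 libraries 4 endothelial markers were called, and with no filter 4 mural markers. They also depended on which libraries were kept. The endothelial sum was 1571 to 1801 CPM with vehicle and 907 to 1567 CPM with inhibitor, its lowest value in replicate 2. For mural markers the WT sums were 372 to 402 and 240 to 385 CPM. No marker of either list was at 0 in any group. Principal cell markers did not move with Ednrb. With inhibitor, 5 of 9 tested rose and 1 fell in ADPKD cells. Their sum there was 1565 to 1909 CPM with vehicle and 1984 to 2410 CPM with inhibitor. In WT cells 8 of 9 rose, and the sum went from 1182 to 1534 CPM to 6135 to 6199 CPM. Ednrb gave -0.04 ± 0.13 in that comparison. The part of any of these cell types in the Ednrb, Ednra and Ren1 results was not tested.

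Ren1, the renin gene, was measured at 31.3 and 32.0 CPM in WT cells with vehicle (629 and 542 counts) and at 41.8 and 21.6 CPM in WT cells with inhibitor (631 and 341 counts). ADPKD cells had 15.4 and 20.1 CPM with vehicle (297 and 370 counts) and 7.55 and 3.73 CPM with inhibitor (116 and 55 counts). The ADPKD inhibitor libraries were the lowest 2 of the 8. In ADPKD cells the inhibitor lowered Ren1 3.13-fold (-1.65 ± 0.40, adjusted p = 0.014), and in WT cells the change was -0.00 ± 0.35. The ADPKD call was lost without replicate 2 of the inhibitor group (-1.22, adjusted p = 0.0552) or of the vehicle group (-1.43, adjusted p = 0.0878). The interaction was -1.65 ± 0.54 and missed the threshold (adjusted p = 0.0598). It passed with DESeq2 (-1.60, adjusted p = 0.00146) and without replicate 2 of WT cells with inhibitor (-2.02, adjusted p = 0.00569).

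With inhibitor, Ren1 was 5.59-fold lower in ADPKD than in WT cells (-2.48 ± 0.40, adjusted p = 0.00168), a call kept in every alternative run. With vehicle it stood at 56.0% of the WT mean. That change of -0.84 ± 0.36 had an adjusted p of 0.0838, but it passed with DESeq2 (adjusted p = 0.00702) and with a fit of those 2 groups alone (adjusted p = 0.00109).

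Agt, the angiotensin precursor, had the widest relative range of the 9 genes. It was measured at 93.3 and 54.2 CPM in WT cells with vehicle (1873 and 917 counts), 42.6 and 23.9 in WT cells with inhibitor (643 and 378 counts), 2.54 and 2.88 in ADPKD cells with vehicle (49 and 53 counts) and 10.3 and 12.8 in ADPKD cells with inhibitor (158 and 188 counts). No 2 groups overlapped. ADPKD cells with vehicle held 3.68% of the WT level, a 27.2-fold difference (-4.77 ± 0.41, adjusted p = 3.38e-05). The inhibitor moved Agt in opposite directions, up 4.24-fold in ADPKD cells (2.09 ± 0.42, adjusted p = 0.00588) and down 2.22-fold in WT cells (-1.15 ± 0.33, adjusted p = 0.039).

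The interaction for Agt was 3.24 ± 0.53 (adjusted p = 0.00412) and was called in every alternative run. The rise in ADPKD cells missed the threshold without replicate 1 (2.00, adjusted p = 0.0738) or replicate 2 (2.19, adjusted p = 0.054) of the vehicle group. The fall in WT cells missed it without replicate 2 of the inhibitor group (-0.80, adjusted p = 0.116), without replicate 1 of the vehicle group (-0.71, adjusted p = 0.142), without any 1 of the 4 ADPKD libraries (adjusted p = 0.0653 to 0.0959) and in a fit of the 2 groups alone (adjusted p = 0.0541). With inhibitor, ADPKD cells were still 2.88-fold below WT cells (-1.53 ± 0.35, adjusted p = 0.00937), and without replicate 1 of the ADPKD cells with inhibitor this was -1.38 (adjusted p = 0.073).

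Ace, the enzyme that makes angiotensin II, was measured at 142 and 79.7 CPM in WT cells with vehicle, 51.7 and 39.5 in WT cells with inhibitor, 33.4 and 26.7 in ADPKD cells with vehicle and 26.0 and 21.8 in ADPKD cells with inhibitor. The groups followed each other in that order without overlap. Ace was 3.69-fold lower in ADPKD than in WT cells with vehicle (-1.88 ± 0.28, adjusted p = 0.000813). The inhibitor lowered it in WT cells (-1.28 ± 0.28, adjusted p = 0.0132), a call lost without either WT inhibitor library (-1.50, adjusted p = 0.066, without replicate 1 and -1.11, adjusted p = 0.144, without replicate 2). In ADPKD cells the change was -0.33 ± 0.29 (adjusted p = 0.401).

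Agtr1a, the main mouse receptor for angiotensin II, was measured at 24.1 and 26.0 CPM in WT cells with vehicle (484 and 440 counts) and at 16.5 and 12.8 CPM in WT cells with inhibitor (249 and 203 counts). ADPKD cells had 1.45 and 2.88 CPM with vehicle (28 and 53 counts) and 2.21 and 2.51 CPM with inhibitor (34 and 37 counts). Both ADPKD groups overlapped and lay far below the WT groups, at 8.64% and 9.43% of the mean of WT cells with vehicle. The genotype difference was 11.6-fold with vehicle (-3.53 ± 0.28, adjusted p = 2.65e-07) and 6.20-fold with inhibitor (-2.63 ± 0.29, adjusted p = 9.95e-06), and both were called in every alternative run.

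The inhibitor gave 0.13 ± 0.32 for Agtr1a in ADPKD cells (adjusted p = 0.778) and -0.77 ± 0.24 in WT cells (adjusted p = 0.0308). The difference between these responses did not pass (interaction 0.90 ± 0.40, adjusted p = 0.118). The WT call was lost without replicate 2 of the inhibitor group (-0.61, adjusted p = 0.15), without either vehicle library of WT cells (adjusted p = 0.113 and 0.162) and without either ADPKD inhibitor library (adjusted p = 0.0507 for each). Agt, Ace and Agtr1a therefore all had their highest levels in WT cells with vehicle. Of the 3, Agt alone passed the test with inhibitor in ADPKD cells.

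Proximal tubule markers moved along with these genes. All 12 fell in ADPKD relative to WT cells with vehicle (median -9.04), and their sum was 60.3 to 82.0 CPM in ADPKD cells with vehicle. With inhibitor 11 of the 12 rose in ADPKD cells (median 2.87), to a sum of 428 to 457 CPM, and 9 of the 12 fell in WT cells (median -1.31), to 6773 to 7062 CPM. Agt fell and rose in the same comparisons; Ace and Agtr1a did not pass the test with inhibitor in ADPKD cells. The 7 thick ascending limb markers summed to 6321 to 6405 CPM in WT cells with vehicle and to 349 to 353 CPM in ADPKD cells with vehicle. No marker of either list was at 0 in any group, and the part of these cells in the results for Agt, Ace and Agtr1a was not tested.

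**Figure D2:**
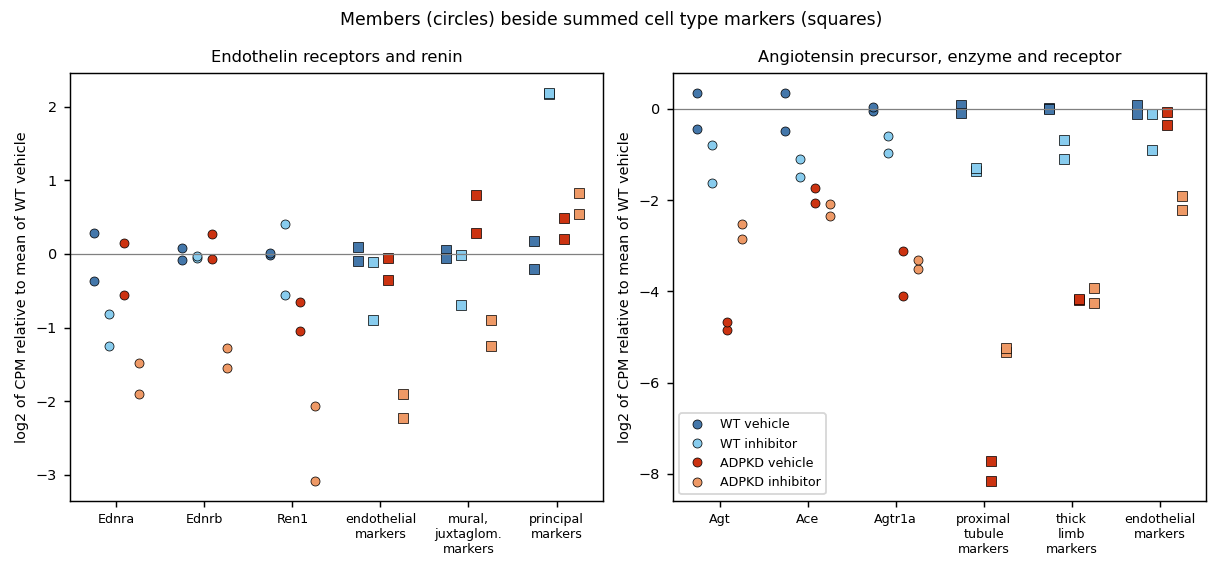
Log2 of CPM relative to the mean of WT cells with vehicle, for 6 of the genes (circles) and for summed marker lists (squares); each point is a library and colours are the 4 groups. Ednrb stays within 0.27 of zero outside ADPKD cells with inhibitor, and Agt in ADPKD cells with vehicle lies at -4.86 and -4.68, where the proximal tubule markers lie at -8.16 and -7.72.

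Atp6ap2, the (pro)renin receptor, had the highest level per kilobase of the 9 genes in every group, and it was the only one to rise with inhibitor in both genotypes. It was measured at 190 and 198 CPM in WT cells with vehicle, 281 and 303 in WT cells with inhibitor, 170 and 160 in ADPKD cells with vehicle and 227 and 219 in ADPKD cells with inhibitor. No 2 groups overlapped. The rise was 1.503-fold in WT cells (0.59 ± 0.09, adjusted p = 0.000409), called in every alternative run, and 1.35-fold in ADPKD cells (0.44 ± 0.09, adjusted p = 0.00214). The ADPKD rise fell to 0.06 (adjusted p = 0.586) when a trend of counts with GC content was removed per library; the longest Atp6ap2 transcript has a GC content of 40.5%, the lowest of the 9.

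Between genotypes, Atp6ap2 was lower in ADPKD cells with vehicle by 1.18-fold (-0.24 ± 0.09, adjusted p = 0.0397) and with inhibitor by 1.31-fold (-0.39 ± 0.09, adjusted p = 0.00354). The first call was lost with the GC trend removed (-0.18, adjusted p = 0.0955), with a length trend removed (-0.21, adjusted p = 0.0566) and without each of the 4 vehicle libraries in turn (adjusted p = 0.0608 to 0.16), and the second after removal of the length trend (-0.21, adjusted p = 0.0728). The 8 intercalated cell markers, of cells in which V-ATPase is abundant, include its subunits Atp6v1g3 and Atp6v0d2. Both are also counted among the other V-ATPase genes below. The 8 markers summed to 751 to 788 CPM in WT cells with vehicle and 1450 to 2092 in WT cells with inhibitor. In ADPKD cells the sums were 143 to 167 CPM with vehicle and 490 to 626 CPM with inhibitor. All 8 fell in ADPKD cells with vehicle, and with inhibitor 7 of 8 rose in ADPKD cells and 6 of 8 in WT cells. No marker of that list was at 0 in any group, and its part in the Atp6ap2 result was not tested.

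**Figure D3:**
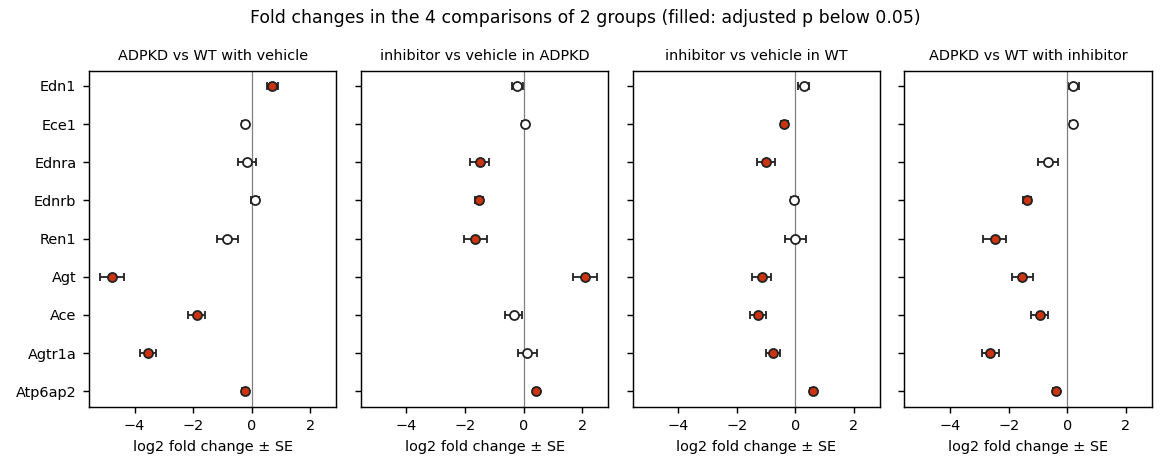
Log2 fold change (x axis, ± SE) of each gene in the 4 comparisons of 2 groups; filled points have an adjusted p below 0.05. Agt and Agtr1a lie farthest to the left between genotypes with vehicle, at -4.77 and -3.53, and Ednra, Ednrb and Ren1 lie between -1.51 and -1.65 with inhibitor in ADPKD cells.

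ADPKD cells that received inhibitor were also set against WT cells that received it. There 6 of the 9 genes were lower and none higher (Ednrb, Ren1, Agt, Ace, Agtr1a and Atp6ap2), where 46.3% of all genes differed. The median was -0.93, against -0.03 over all genes. This comparison shares its libraries with the inhibitor comparisons above. Ednrb, which did not pass between genotypes with vehicle (0.11 ± 0.13, adjusted p = 0.48), was 2.58-fold lower in ADPKD cells with inhibitor (-1.37 ± 0.13, adjusted p = 3.38e-06). Ace differed by -0.93 ± 0.29 (adjusted p = 0.0321), a call lost with the GC trend removed (-0.66, adjusted p = 0.0982) and without any 1 of the 4 libraries compared or of the 2 ADPKD vehicle libraries (-0.73 to -1.10, adjusted p = 0.061 to 0.23). Edn1, Ece1 and Ednra did not pass (0.21, 0.19 and -0.65).

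The order of the 9 genes per kilobase of longest transcript changed between the groups. In WT cells with vehicle it ran from Atp6ap2 (83.5 ± 2.4 CPM per kb) through Ednrb (42.2 ± 3.3), Agt (39.0 ± 14.6), Ece1 (31.9 ± 2.1), Ace (22.6 ± 9.0), Ren1 (19.9 ± 0.3), Agtr1a (11.4 ± 0.6) and Edn1 (5.98 ± 0.37) to Ednra (3.20 ± 1.01). Agt did not differ there from Ednrb or Ece1 beyond the SD of Agt, nor Ace from Ren1 beyond that of Ace. Ednrb, at 44.5 and 39.8 CPM per kb, lay above Ece1, at 33.4 and 30.4, in both libraries. In ADPKD cells with vehicle Agt and Agtr1a were the lowest 2, at 1.43 ± 0.13 and 0.98 ± 0.46 CPM per kb, a difference within the SD of Agtr1a, and Edn1 at 9.73 ± 2.1 stood above Ace at 6.13 ± 0.97. In ADPKD cells with inhibitor Ece1 (27.9 ± 0.3) stood above Ednrb (15.9 ± 2.1), the reverse of the other 3 groups.

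The other listed endothelin genes include the ligands Edn2 and Edn3, the enzyme Ece2, and neprilysin (Mme) and Kel, endopeptidases that act on endothelins. Edn2 and Ece2 had at most 21 counts in a group and were not tested. Neprilysin, which degrades endothelin-1, had 170 to 218 CPM in WT cells with vehicle, 156 to 232 in WT cells with inhibitor, 32.6 to 43.8 in ADPKD cells with vehicle and 124 to 134 in ADPKD cells with inhibitor. It fell in ADPKD cells with vehicle (-2.34 ± 0.23, adjusted p = 4.13e-05) and rose with inhibitor there (1.76 ± 0.23, adjusted p = 0.000501). In the same comparisons 12 of 12 proximal tubule markers fell (median -9.04) and 11 of 12 rose (median 2.87), and their part in the neprilysin result was not tested. Edn3 also fell (-1.24 ± 0.34, adjusted p = 0.00692) and rose (1.34 ± 0.34, adjusted p = 0.00706), from 1.79 to 3.16 CPM with vehicle to 6.18 to 6.38 CPM with inhibitor in ADPKD cells. Its fall was not called without replicate 1 of the WT cells with vehicle (-0.79, adjusted p = 0.118) or replicate 2 of the ADPKD cells with vehicle (-0.91, adjusted p = 0.0512). Per kilobase, Ece1 stood to neprilysin at 1.24 and 1.44 in WT cells with vehicle, 1.39 and 0.763 in WT cells with inhibitor, 4.91 and 6.76 in ADPKD cells with vehicle and 1.82 and 1.66 in ADPKD cells with inhibitor.

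Of 17 further renin-angiotensin genes 11 were tested. With vehicle 5 were lower in ADPKD cells and 3 higher (median -0.34), with inhibitor 6 rose and 2 fell there (median 0.47), and 2 rose and 3 fell in WT cells (median -0.30). Over all tested genes the shares called in these 3 comparisons were 56.4%, 41.4% and 25.5%, and the medians 0.05, 0.02 and -0.01. The aminopeptidases Enpep and Anpep, which trim angiotensins at the brush border, fell in ADPKD cells with vehicle (-3.37 ± 0.19, adjusted p = 6.63e-08, and -2.94 ± 0.14, adjusted p = 1.8e-09). Enpep had 234 to 239 CPM in WT cells with vehicle and 20.03 to 25.7 CPM in ADPKD cells with vehicle. Anpep rose with inhibitor in ADPKD cells (1.26 ± 0.13) and fell in WT cells (-0.91 ± 0.12). The proximal tubule markers moved in the same directions as Anpep (medians -9.04, 2.87 and -1.31), and their part in the results for Enpep and Anpep was not tested. Lnpep, the angiotensin IV receptor and aminopeptidase, rose 2.02-fold with inhibitor in ADPKD cells (1.01 ± 0.10, adjusted p = 1.37e-05). Agtr2, the type 2 receptor, had 8 and 6 counts in the WT groups and 0 in both ADPKD groups, and Agtr1b had 3 counts in WT cells with vehicle and 0 elsewhere, so no change could be seen at this depth.

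**Figure D4:**
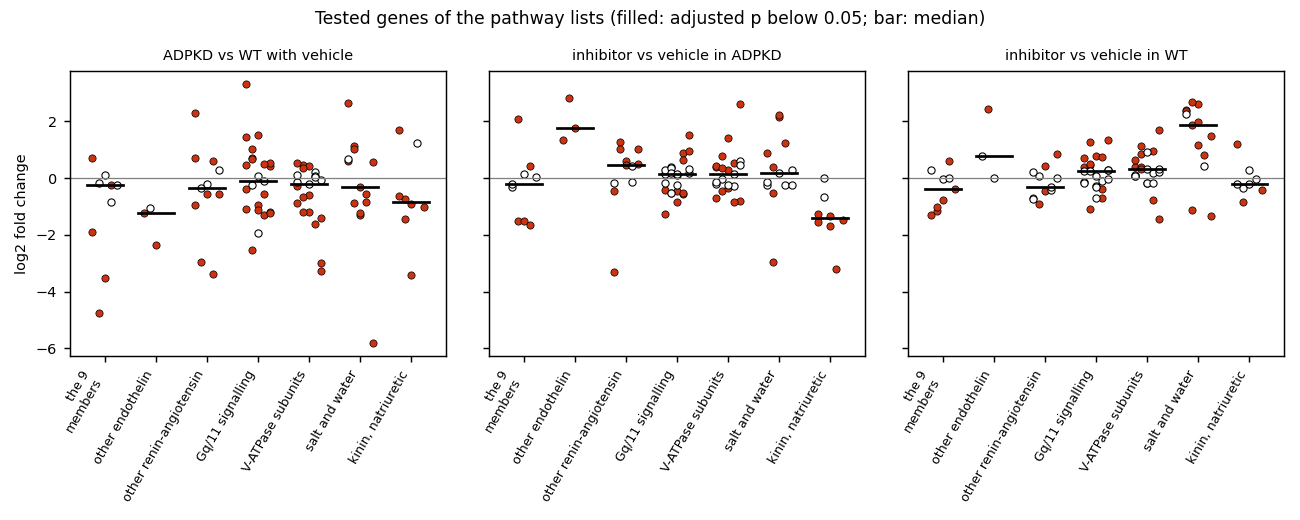
Log2 fold change (y axis) of the 9 genes and of the tested genes of 6 pathway lists in 3 comparisons; filled points have an adjusted p below 0.05 and bars are medians. The lowest point between genotypes with vehicle is Nos1, the neuronal nitric oxide synthase, at -5.81, and the salt and water genes in WT cells with inhibitor have a median of 1.87.

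Downstream of both receptor families, 23 genes of Gq/11 signalling gave 10 higher and 9 lower in ADPKD cells with vehicle, 4 and 7 with inhibitor in ADPKD cells and 8 and 3 with inhibitor in WT cells. Over all tested genes 56.4%, 41.4% and 25.5% were called in these comparisons, so the count in ADPKD cells with inhibitor lay near that of all genes. Itpr3, an inositol trisphosphate receptor that releases stored calcium, rose 10.02-fold in ADPKD cells, from 77.5 to 80.5 CPM to 789 to 795 CPM (3.33 ± 0.13, adjusted p = 3.75e-10), and Plcb1, a phospholipase C, fell (-2.53 ± 0.17, adjusted p = 5.07e-08). Plcb4, another phospholipase C, rose with inhibitor in both genotypes (1.498 ± 0.151 in ADPKD cells and 1.345 ± 0.153 in WT cells).

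The list of salt and water genes also held Per1 and the nitric oxide synthase genes Nos1, Nos2 and Nos3. Of its 13 tested genes, 9 rose and 2 fell with inhibitor in WT cells (median 1.87). In ADPKD cells 5 rose and 2 fell (median 0.19). Of all genes, 25.5% and 41.4% were called in these comparisons. In WT cells Nos1 and Nos3 alone of the tested genes had a lower mean with inhibitor. Nos1 had 1.92 CPM against 4.85 with vehicle, and Nos3 40.0 against 87.9. Hsd11b2, which shields the mineralocorticoid receptor from glucocorticoids, rose in WT cells (2.59 ± 0.15, adjusted p = 9.55e-07) and in ADPKD cells (2.14 ± 0.15, adjusted p = 3.44e-06). The mineralocorticoid receptor Nr3c2, the receptor for aldosterone, rose as well (1.96 ± 0.19 and 2.20 ± 0.20). Scnn1g, a subunit of the epithelial sodium channel, went from 52.8 to 72.2 CPM to 385 to 409 CPM in WT cells (2.67 ± 0.13, adjusted p = 2.65e-07). Nos3, the endothelial nitric oxide synthase that Ednrb signalling activates, fell with inhibitor in ADPKD cells, from 44.2 to 51.3 CPM to 4.89 to 7.48 CPM (-2.94 ± 0.32, adjusted p = 0.000232), where all 12 endothelial markers fell too. Principal cell markers moved too: 8 of 9 tested rose with inhibitor in WT cells, to a sum of 6135 to 6199 CPM, and 5 rose and 1 fell in ADPKD cells, from 1565 to 1909 CPM to 1984 to 2410 CPM. Aqp2, Aqp3, Avpr2, Scnn1b, Scnn1g and Hsd11b2 are on both lists, so the counts of these lists are not independent. Aqp2 and Hsd11b2 alone had means of 1811 and 1755 CPM in WT cells with inhibitor. The part of principal cells in these changes was not tested.

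Of 21 other V-ATPase subunit and accessory genes, 8 rose and 5 fell with inhibitor in ADPKD cells and 8 rose and 2 fell in WT cells, while 10 fell and 4 rose between genotypes with vehicle. The shares of all tested genes called there were 41.4%, 25.5% and 56.4%. Atp6v1b1, a subunit of the intercalated cell pump, fell in ADPKD cells (-1.20 ± 0.10, adjusted p = 3.12e-07) and rose with inhibitor there (0.79 ± 0.10, adjusted p = 4.91e-05). Atp6v1g1, a stalk subunit found in most tissues, fell with inhibitor in both genotypes (-0.84 ± 0.10 and -0.76 ± 0.10), opposite to Atp6ap2. With inhibitor, 14 of the 21 were lower in ADPKD than in WT cells and none higher (median -0.65), where 46.3% of all genes were called.

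For each of the 9 genes, the 3 other named genes with the most similar profile over the 8 libraries were found by the root mean square distance of log2 CPM, centred per gene. For Ednra they were Adgrl4 (0.123), Sparcl1 (0.145) and Flt1 (0.192), and Flt1 is also on the endothelial marker list. For Ednrb they were Plod1 (0.167), Sh3tc1 (0.177) and Cebpa (0.189), and for Ren1 S1pr3 (0.137), Zfp366 (0.188) and Mmrn2 (0.195). Agt was nearest to Gpm6a (0.241), Mmp10 (0.265) and Tmigd1 (0.272), Ace to Bcat1 (0.188), Gramd1b (0.199) and Pgm5 (0.205), and Agtr1a to B3galnt1 (0.160), Slc25a10 (0.168) and Tst (0.178). The closest genes to Edn1 were Tti1 (0.080), Max (0.099) and Il34 (0.105), to Ece1 Rrnad1 (0.077), Psmd6 (0.079) and Crebzf (0.090), and to Atp6ap2 Stxbp2 (0.072), Zfp710 (0.073) and Zfp64 (0.073).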

How the data were processed

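RNA was extracted with TRIzol from the isolated cells and selected with oligo-dT, per the labels' protocols, which also mention whole kidney. HISAT2 2.1.0, featureCounts 1.6.0, DESeq2 and the build mm10 are named in the submitters' processing notes; which annotation, strand setting and rule for multiply mapped reads were used is not given in the sources used here. As a table, the authors deposited raw counts for 55304 genes in 8 libraries, 15108793 to 19702638 per library. The vehicle columns, whose names lack the vehicle's name, were matched to their samples by elimination. Gene positions and lengths came from GENCODE M21 (53569 symbols matched, 96.9%).

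The tests used edgeR 4.0.16 under R 4.3.3: filterByExpr (minimum count 10, minimum total 15), TMM scaling and a robust quasi-likelihood fit over the 4 groups with 4 residual degrees of freedom. The 5 contrasts were tested, two-sided, with Benjamini-Hochberg adjustment over all 17440 tested genes at 0.05. The script was tested on simulated data. Alternatives were RLE scaling, no filter, a filter of 5 CPM in 2 libraries, no robust option, a replicate block, DESeq2 1.42.0, the 2 compared groups alone, removal of GC or length trends (lowess, span 0.3), and leaving out each library. The genes and lists were chosen with earlier results of these data known. Genes named from a list were among its 5 with the smallest p in a described comparison, or any of the other endothelin and renin-angiotensin genes; similar profiles were sought among genes with a mean of at least 5 CPM, with 0.5 CPM added before the log2. A gene of the renin-angiotensin list is not reported here. Lists of fibroblast and macrophage markers have their values in the closing section. Python 3.11.15 and matplotlib 3.10.9 made the figures.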

Additional observations from a re-analysis of the deposited data

Results flagged for a closer look

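The response to the inhibitor differed between the genotypes by a test of the difference itself for 2 of the 9 genes. Of all tested genes 26.6% passed that test, so the count itself sets the 9 genes apart in no way. For Ednrb the interaction was -1.479 ± 0.179 on the log2 scale (adjusted p = 0.000107): it fell in ADPKD cells and stayed within overlapping ranges in WT cells. For Agt the interaction was 3.236 ± 0.529 (adjusted p = 0.00412): it rose in ADPKD cells and fell in WT cells.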

How the results depend on the processing

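Over 756 alternatives for single genes in single comparisons, 666 kept the direction and the side of the threshold, 41 lost a call, 37 gained one and 12 changed sign, all 12 of them in contrasts without a call. The cause of these shifts was not tested. Where a left-out library leaves its group with 1, that library is assumed to vary like the other groups. Among the 9 genes, leaving out 1 library gave 3 to 7 called between genotypes with vehicle (5 with all libraries), 3 to 5 with inhibitor in ADPKD cells (5), 1 to 5 with inhibitor in WT cells (6), 4 to 6 between genotypes with inhibitor (6) and 2 to 3 for the interaction (2). The lowest counts came without replicate 2 of either vehicle group, without replicate 2 of ADPKD cells with vehicle, and without replicate 2 of WT cells with inhibitor (1) or replicate 1 of WT cells with vehicle (2). The interaction count was 5 with no filter, with DESeq2 and with the GC trend removed, and 4 with the 5 CPM filter and with the replicate block. The differences between replicates 1 and 2 correlated at -0.0371 to 0.0806 between groups over 11199 genes. A pairing of libraries by replicate number with small effects was not tested. Besides the interaction count, the block moved no count of the 9 genes by over 1.5 times. Over all genes, calls fell from 7224 to 4783 with inhibitor in ADPKD cells without replicate 2 of the inhibitor group. They fell from 4448 to 2402 and 2887 in WT cells without replicate 1 or 2 of the vehicle group. For the interaction they fell from 4636 to 3037 without replicate 1 of WT cells with vehicle and to 3073 without replicate 2 of ADPKD cells with inhibitor. Sign changes between genotypes with vehicle were Ednra at 0.18 and 0.14 without replicate 1 of the WT or ADPKD vehicle group (-0.58 to 0.18 over the libraries left out), and Ednrb at -0.087 without replicate 2 of the latter (-0.087 to 0.26). With inhibitor in ADPKD cells they were Edn1 at 0.040 without replicate 2 of the vehicle group (-0.42 to 0.040), Ece1 at -0.036 with the 5 CPM filter and -0.078 with the length trend removed, and Agtr1a at -0.017 with the GC trend removed and -0.28 without replicate 1 of the vehicle group (-0.28 to 0.71). With inhibitor in WT cells they were Ednrb at 0.041 without replicate 1 of the vehicle group (-0.12 to 0.041) and Ren1 at 0.0096 without replicate 2 of the vehicle group and 0.40 without replicate 2 of the inhibitor group (-0.56 to 0.40). For the interaction, Atp6ap2 was 0.0058 with the length trend removed. Counts over the lists moved by over 1.5 times in these cases, given as lowest and highest with the reported count in parentheses: between genotypes with vehicle, other endothelin 1 to 2 (2), salt and water 7 to 13 (12), endothelial 1 to 7 (3), mural 2 to 5 (4) and principal cell 4 to 8 (7); with inhibitor in ADPKD cells, V-ATPase 6 to 15 (13), other renin-angiotensin 5 to 9 (8), mural 3 to 6 (5), fibroblast 0 to 5 (3) and macrophage 1 to 7 (2); with inhibitor in WT cells, other endothelin 0 to 2 (1), other renin-angiotensin 3 to 6 (5), Gq/11 signalling 6 to 13 (11), kinin and natriuretic 1 to 4 (3), endothelial 0 to 9 (1) and mural 0 to 5 (1). Of the named list genes, Kel lost its WT call without replicate 2 of the vehicle group (2.15, adjusted p = 0.0664). With 2 libraries a group and 4 residual degrees of freedom, small changes of genes with few counts, such as Agtr1a in ADPKD cells, could not be told from no change.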

Other observations

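Kel, an endopeptidase whose human counterpart activates the precursor of endothelin-3, was low but rose with inhibitor in both genotypes, from 0.354 to 0.548 CPM to 2.21 to 2.72 CPM in WT cells (2.42 ± 0.57, adjusted p = 0.00694) and from 0.104 to 0.326 CPM to 1.497 to 1.63 CPM in ADPKD cells (2.83 ± 0.64, adjusted p = 0.00351). Among 8 tested kinin and natriuretic peptide genes, 6 were lower and 1 higher in ADPKD cells with vehicle, and 6 fell and none rose with inhibitor in ADPKD cells (median -1.41), where 56.4% and 41.4% of all genes were called. Klk1, the tissue kallikrein that releases kinins, fell in ADPKD cells with vehicle from 738 to 983 CPM to 61.7 to 99.1 CPM (-3.42 ± 0.40, adjusted p = 0.000845). The kinin receptor Bdkrb2 rose there (1.69 ± 0.22, adjusted p = 2.19e-05), fell with inhibitor in ADPKD cells (-1.28 ± 0.22, adjusted p = 0.000496) and rose with inhibitor in WT cells (1.20 ± 0.22, adjusted p = 0.00135). The natriuretic peptide receptors Npr1 and Npr3, both also found on endothelium, fell with inhibitor in ADPKD cells (-1.56 ± 0.21 and -1.70 ± 0.25), in the comparison in which all 12 endothelial markers fell.

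Nos1, the neuronal nitric oxide synthase of the macula densa, had 3.43 to 6.28 CPM in WT cells with vehicle and 0.0519 to 0.109 CPM in ADPKD cells with vehicle, a change of -5.81 ± 0.64 (adjusted p = 5.69e-06). All 8 fibroblast markers rose in ADPKD cells with vehicle (median 2.05), to a sum of 475 to 857 CPM from 132 to 175 CPM, and 6 of 8 macrophage markers rose and 1 fell (median 3.79), to 241 to 296 CPM from 76.4 to 102 CPM. With inhibitor in ADPKD cells 3 of 8 fibroblast markers fell and none rose, and 1 macrophage marker rose and 1 fell. Fibroblast and most macrophage markers thus rose where Edn1 did. Of 12 endothelial markers 1 was higher there and 2 lower (median -0.27), and of 11 mural markers 2 were higher and 2 lower. All 8 intercalated and all 12 proximal tubule markers fell, as did 6 of 7 thick ascending limb markers. Of 9 tested principal cell markers, 5 were higher there and 2 lower (median 0.59). The part of these cell types in the Edn1 result was not tested.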
